A study of Homo sapiens with 6 samples.

Results

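The genes described here encode actin filament crosslinkers and bundlers: the filamins FLNA and FLNC, the alpha-actinins ACTN1 and ACTN4, the plastins LCP1 and PLS3, and the fascin FSCN1. They were taken by symbol, 7 genes of 61155 symbols in the count table. The cells were MDA-MB-231, a human breast cancer line, and RNA-seq covered 3 libraries with VASP knocked down and 3 control libraries, harvested 48 hours after transfection. The knockdown libraries are titled shVASP and their characteristics name a VASP siRNA. The control libraries are titled plko, the name of an empty hairpin vector, and their characteristics name a negative control siRNA, so the reagent used cannot be told from the labels. No further allele or agent is named for either group, and all libraries came from the same line.

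VASP binds the growing ends of actin filaments and promotes their elongation. The proteins described here act on the filaments so formed. Filamins are long flexible dimers that join filaments into networks and tie them to integrins, alpha-actinins are shorter dimers found along stress fibres and at focal adhesions, and plastins and fascin pack filaments into tight bundles such as those of filopodia. Several of these genes are known from other systems as targets of SRF and its cofactor MRTF, which senses free actin.

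The libraries held 28856610 to 30055503 counts each, and VASP itself was 12.9-fold lower in the knockdown libraries, at 12.7 ± 0.355 CPM against 164 ± 9.04 CPM in control libraries (SD, n = 3 each). Of 12 markers checked for the line, the 7 mesenchymal ones were present, from ZEB1 at 64.8 and 46.9 CPM in knockdown and control libraries to MSN at 1955 and 1988 CPM. Of these, FN1 fell 1.77-fold (adjusted p = 4.8e-05) and ZEB1 rose 1.38-fold (adjusted p = 2.4e-06 by edgeR). Of the 5 markers listed as low, CDH1, PGR and ESR1 averaged under 1 CPM in both groups and EPCAM 5.43 and 6.42 CPM, whereas ERBB2 stood at 97.8 and 107 CPM and fell (log2 fold change -0.13, edgeR adjusted p = 0.035). CPM are counts scaled to library size with TMM factors, and RPKM are those values per kilobase of merged exon. By edgeR's quasi-likelihood test, 37.2% of the 16633 genes tested passed an adjusted p of 0.05, 18.3% of them lower and 18.9% higher in knockdown libraries, and groups did not overlap in 47.6%. In bulk RNA, fewer cells with a transcript and less transcript per cell cannot be told apart.

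Of the 7 genes, 6 passed the filter on low counts. Among these 6, FLNA, FLNC, ACTN1, LCP1 and FSCN1 fell and none rose by edgeR, against the 18.3% of all tested genes that fell, while PLS3 did not pass (adjusted p = 0.09). The median log2 fold change of the 6 was -0.26, against -0.01 over all genes tested. The 5 decreases were not equally firm. LCP1, FLNA and FLNC kept an adjusted p under 0.05 whichever library was left out, and LCP1 and FLNA also passed a test against a fold change of 1.2, which 5.73% of all tested genes passed, 3.78% downward. ACTN1 and FSCN1 changed by 1.10-fold and 1.12-fold, and each lost the call when single libraries were left out.

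**Figure D1:**
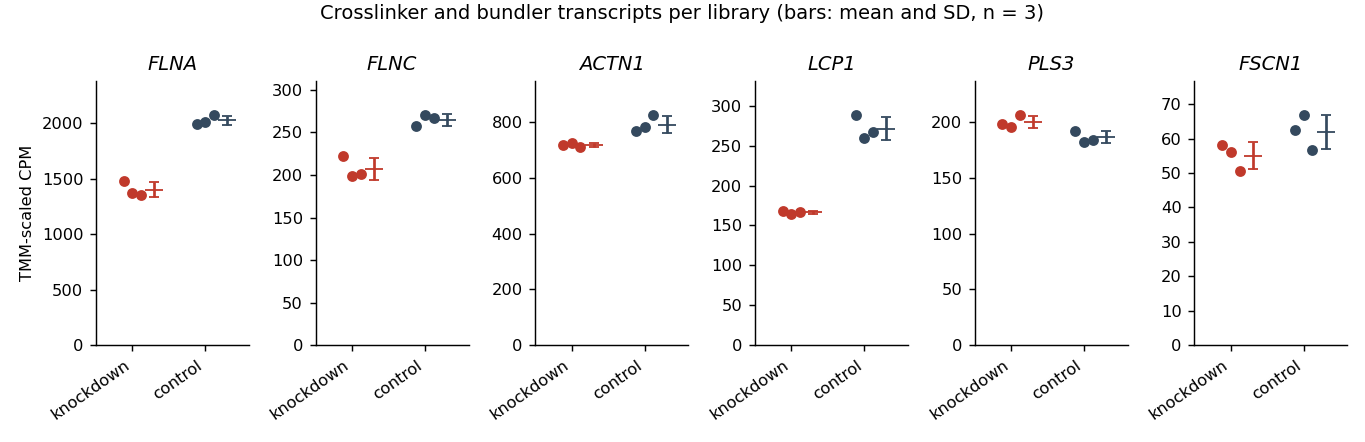
TMM-scaled CPM of the 6 tested genes in each library, with knockdown libraries in red and control libraries in dark blue; horizontal marks and bars show the mean and SD of 3 libraries, and each vertical axis starts at 0. The groups separate in FLNA, FLNC, ACTN1 and LCP1, where knockdown is lower, and in PLS3, where it is higher by a small amount, and they overlap in FSCN1.

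In transcript level per length, FLNA led in both groups, at 133 ± 6.73 RPKM in knockdown and 192 ± 3.76 RPKM in control libraries (SD, n = 3 each). In knockdown libraries ACTN1 followed at 67.5 ± 0.618 RPKM, then PLS3 at 48.7 ± 1.29, LCP1 at 33.5 ± 0.423, FLNC at 22.3 ± 1.43 and FSCN1 at 14.9 ± 1.06 RPKM. In control libraries the order was ACTN1 at 74.4 ± 2.73, LCP1 at 54.7 ± 2.97, PLS3 at 45.4 ± 1.30, FLNC at 28.5 ± 0.707 and FSCN1 at 16.7 ± 1.37 RPKM. No neighbours in either order overlapped in their ranges over libraries. The plastins were the one pair that changed places between the groups. The lengths used are of merged exons, 10585 bases for FLNA and 10626 for ACTN1, and not of the transcripts expressed. The order between genes depends on these lengths, whereas the change of a gene between groups does not. For LCP1, 19.45% of the exon bases are shared with an antisense gene, and shared fragments there were not counted.

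FLNA encodes filamin A, the widely expressed filamin that binds integrin tails, and lies on the minus strand of GRCh38 chromosome X, from 154348524 to 154374638, with 41 blocks of merged exons. It had 1485, 1376 and 1351 CPM in knockdown libraries, against 1995, 2017 and 2072 CPM in control libraries. All 3 knockdown libraries lay below all control libraries, and the gap between the groups was wider than the spread within either. The log2 fold change was -0.53 (SE 0.05, 95% interval -0.64 to -0.42, edgeR adjusted p = 9.6e-08), 1.44-fold lower. With 39676 to 45542 counts in knockdown and 58212 to 59944 in control libraries, counting error is small beside the spread between libraries.

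FLNC, filamin C, is the filamin best known from striated muscle, where it sits at Z-discs, and lies on the plus strand of chromosome 7, from 128830377 to 128859274. It had 222, 199 and 201 CPM in knockdown libraries, against 257, 270 and 267 CPM in control libraries. The groups did not overlap, with knockdown library 1 nearest to control. The log2 fold change was -0.35 (SE 0.05, 95% interval -0.46 to -0.25, edgeR adjusted p = 9.4e-06), 1.28-fold lower. Of 12 markers of skeletal muscle, 5 had no count in any library (MYH1, MYH2, MYH7, MYOD1 and TNNI2), and their summed level ran from 172 to 187 CPM in knockdown and from 177 to 191 CPM in control libraries, nearly all of it TNNT1, at 170 and 180 CPM, which did not pass the test. TTN, the only other muscle marker tested, rose, at 7.48 ± 1.08 CPM in knockdown and 5.88 ± 0.377 CPM in control libraries (SD, n = 3 each, log2 fold change 0.35, edgeR adjusted p = 0.017). TNNI2 also lies on an extra sequence of the annotation, as described for ACTN4 below.

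FLNA fell further than FLNC in point estimate. Within libraries, FLNA per length was 5.85, 6.08 and 5.90 times FLNC in knockdown, against 6.799, 6.55 and 6.81 times in control. The difference of the log2 ratio, knockdown minus control, was -0.18 (two-sided exact permutation p = 0.10, the smallest that 3 libraries against 3 allow).

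**Figure D2:**
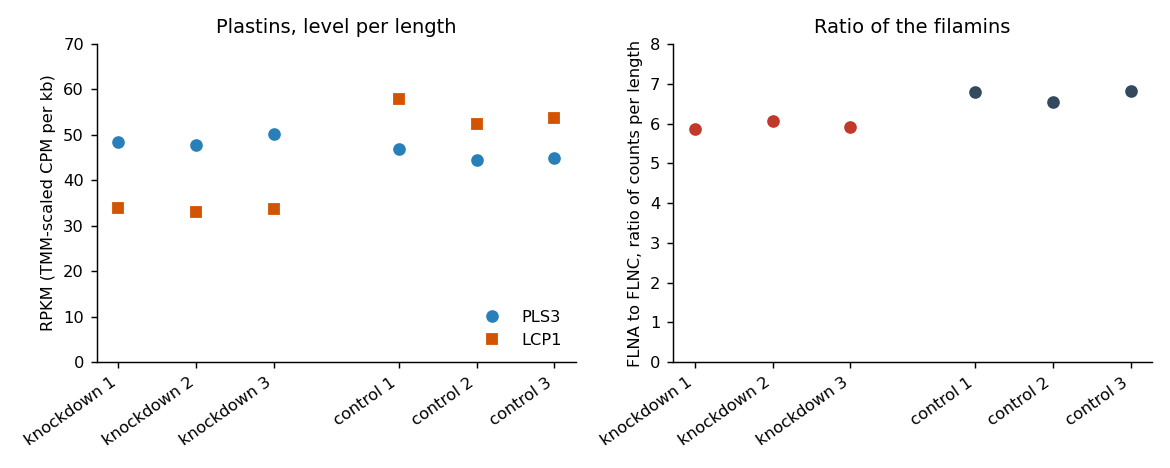
Left, RPKM of the plastins PLS3 (circles) and LCP1 (squares) in each library; right, the ratio of FLNA to FLNC counts per length in each library, knockdown in red and control in dark blue; both axes start at 0. PLS3 stands above LCP1 in the 3 knockdown libraries and below it in the 3 control libraries, and the ratio of FLNA to FLNC is lower in the 3 knockdown libraries.

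ACTN1 encodes alpha-actinin 1, which crosslinks filaments at focal adhesions and along stress fibres, and lies on the minus strand of chromosome 14, from 68874143 to 68979440. It had 718, 723 and 710 CPM in knockdown libraries, against 767, 781 and 823 CPM in control libraries. The groups did not overlap, but the change was small, with a log2 fold change of -0.14 (SE 0.05, 95% interval -0.24 to -0.04, edgeR adjusted p = 0.028). The adjusted p without each of the 3 knockdown libraries in turn was 0.080, 0.067 and 0.10, and it was 0.025, 0.055 and 0.11 without each control library. The processed pseudogene HMGN1P3 covers 300 bases of its exons on the same strand and had no count in any library.

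ACTN4 encodes alpha-actinin 4, the paralogue of ACTN1 that is linked to cell motility. It had 0 counts in each knockdown library and 1, 0 and 0 counts in control libraries, so no level or change was detectable in this table, and a count of 0 allows up to 3 counts in a library. The annotation used for counting places ACTN4 on chromosome 19, from 38647649 to 38731589, and again on the patch sequence KQ458386.1, with 24 blocks and 6104 bases of merged exons on each. Its length is accordingly listed as 12208 bases. The counting command has no option for fragments with several alignments, and at the defaults of the program such fragments are not counted. Of 1122 protein-coding symbols that lie both on a chromosome and on such an extra sequence, 69.4% had 6 or fewer counts over the 6 libraries, with a median of 0, against 23.4% of 18614 symbols on chromosomes alone, with a median of 1470.5. The value of ACTN4 is therefore not read as absence of its transcript, and no ratio of ACTN1 to ACTN4 could be made.

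LCP1, L-plastin, bundles filaments in leukocytes and is also made by many cancer cell lines, and lies on the minus strand of chromosome 13, from 46125920 to 46211871. It had 168, 164 and 167 CPM in knockdown libraries, against 288, 259 and 267 CPM in control libraries. The groups did not overlap, and the gap between them was wider than the spread within either. LCP1 was 1.63-fold lower, with a log2 fold change of -0.71 (SE 0.05, 95% interval -0.81 to -0.60, edgeR adjusted p = 1.2e-10). Of all genes tested, 3.14% had a lower log2 fold change. The antisense gene CPB2-AS1 shares 19.45% of the exon bases of LCP1, where shared fragments were not counted, and itself had 2 to 10 counts in knockdown and 4 to 12 counts in control libraries.

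Of 12 leukocyte markers, MS4A1 had no count in any library, and PTPRC, which also lies on an extra sequence of the annotation, had 16 counts in all. CD3E, CD3D, LYZ, ITGAM and CD52 averaged at most 0.0803 CPM in either group. The summed level of the 12 was 41.3 to 44.7 CPM in knockdown and 47.5 to 56.5 CPM in control libraries, most of it from ITGB2, the beta-2 integrin subunit, at 33.2 ± 0.409 CPM in knockdown and 44.3 ± 4.05 CPM in control libraries (SD, n = 3 each, log2 fold change -0.42, edgeR adjusted p = 1.8e-05). LAPTM5 rose, at 4.67 ± 0.468 against 3.30 ± 0.584 CPM (SD, n = 3 each, log2 fold change 0.50, edgeR adjusted p = 0.0061).

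PLS3, T-plastin, is the plastin of most solid tissues and lies on the plus strand of chromosome X, from 115561174 to 115650861. It had 198, 195 and 206 CPM in knockdown libraries, against 192, 182 and 184 CPM in control libraries. The groups did not overlap, but PLS3 did not pass the test (log2 fold change 0.10, SE 0.05, 95% interval 0.01 to 0.20, edgeR adjusted p = 0.090). PLS3 per length was 1.43, 1.44 and 1.49 times LCP1 in knockdown libraries, against 0.808, 0.850 and 0.836 times in control libraries. The log2 ratio was 0.54 ± 0.03 in knockdown and -0.27 ± 0.04 in control libraries (SD, n = 3 each), a difference of 0.81 (two-sided exact permutation p = 0.10, the smallest the design allows). PLS1, the plastin of the intestinal brush border, chosen after its values were seen, stood at 31.2 ± 0.689 CPM in knockdown and 28.0 ± 0.671 CPM in control libraries (SD, n = 3 each, log2 fold change 0.16, edgeR adjusted p = 0.040). The longest PLS1 transcript has 36.1% GC, within the GC-poorest decile of tested genes, whose median log2 fold change was 0.18.

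FSCN1 encodes fascin, the bundler of filopodia and invadopodia, and lies on the plus strand of chromosome 7, from 5592816 to 5606655. It had 58.3, 56.2 and 50.7 CPM in knockdown libraries, against 62.5, 66.7 and 56.7 CPM in control libraries. The groups overlapped, since control library 3 lay between knockdown libraries. The log2 fold change was -0.17 (SE 0.06, 95% interval -0.30 to -0.04, edgeR adjusted p = 0.036). The adjusted p without each knockdown library in turn was 0.027, 0.083 and 0.21, it was 0.090, 0.23 and 0.0033 without each control library, and it was 0.075 by DESeq2.

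**Figure D3:**
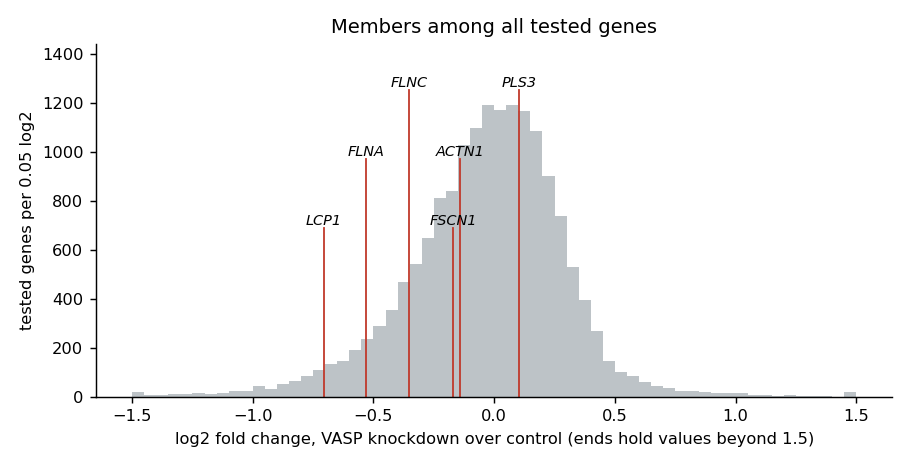
Histogram of the log2 fold change, VASP knockdown over control, of all 16633 tested genes, with the 6 tested crosslinkers and bundlers marked by red lines (values beyond 1.5 are drawn in the end bins; line heights differ only to separate the names). LCP1 and FLNA lie in the lower tail, and ACTN1, FSCN1 and PLS3 lie within the bulk of the distribution.

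Fold change followed GC content across all genes. Median values were -0.23 in the GC-richest decile of tested genes, from 61.1% upward, and 0.18 in the GC-poorest decile (log2 fold change). The longest transcripts of FLNA, FLNC and FSCN1 lie in the GC-richest decile, with 62.2%, 62.3% and 65.0% GC, whereas those of ACTN1, LCP1 and PLS3 have 49.9%, 45.4% and 39.0%. With trends in GC content and length removed, the log2 fold change of LCP1 was -0.72 (SE 0.04, edgeR adjusted p = 2.1e-10), that of FLNA was -0.34 (SE 0.05, adjusted p = 5.9e-05) and that of FLNC was -0.16 (SE 0.05, adjusted p = 0.011). ACTN1 then had -0.09 (adjusted p = 0.16), PLS3 -0.01 (adjusted p = 0.87) and FSCN1 0.07 (adjusted p = 0.30), so that the signs of PLS3 and FSCN1 turned and 3 of the 6 fell, against 12.2% of all genes in the corrected fit. The median of the 6 was then -0.13, against 0.03 over all genes. LCP1 thus had about the same decrease with and without the correction.

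**Figure D4:**
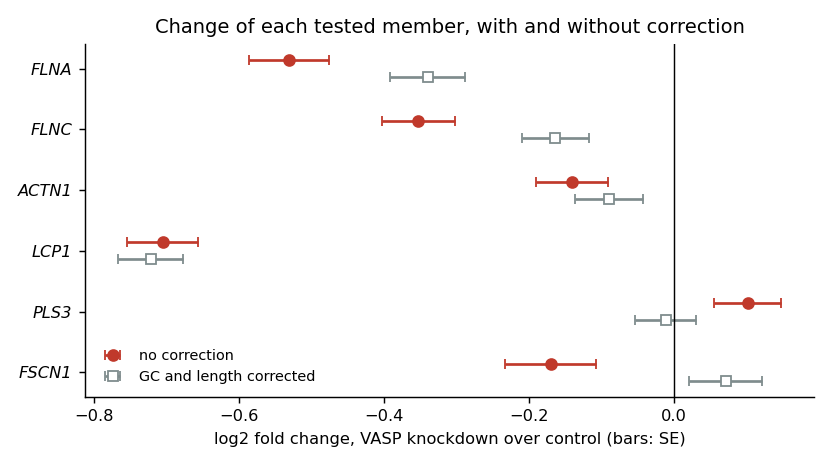
Log2 fold change, VASP knockdown over control, of the 6 tested genes without correction (red circles) and with trends in GC content and length removed (open grey squares); bars show the SE. LCP1 stays at the same place, FLNA and FLNC move towards 0 but remain below it, and PLS3 and FSCN1 cross it.

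The promoters of the genes that fell furthest, FLNA, LCP1 and FLNC, are printed with that of PLS3, which did not fall. An alternative start of ACTN1 is printed as well. Each is the 250 bases before a RefSeq start in GRCh38.p14, 5′ to 3′ on the strand of the gene. Such a sequence was at hand for 6 of the 7 genes, all but FSCN1, over 11 starts. Capitals mark matches, on either strand, to the CArG box bound by SRF, to CATTCC, the core bound by TEAD factors, or to TGANTCA. The last is a loosened form of the AP-1 site that takes any middle base. No match overlaps another.
FLNA, chrX:154374635-154374884, minus strand: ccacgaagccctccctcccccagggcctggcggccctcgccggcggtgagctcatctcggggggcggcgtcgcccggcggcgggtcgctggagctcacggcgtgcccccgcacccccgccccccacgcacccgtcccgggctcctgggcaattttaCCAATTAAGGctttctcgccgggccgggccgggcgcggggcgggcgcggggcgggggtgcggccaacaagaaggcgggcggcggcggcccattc
FLNC, chr7:128830156-128830405, plus strand: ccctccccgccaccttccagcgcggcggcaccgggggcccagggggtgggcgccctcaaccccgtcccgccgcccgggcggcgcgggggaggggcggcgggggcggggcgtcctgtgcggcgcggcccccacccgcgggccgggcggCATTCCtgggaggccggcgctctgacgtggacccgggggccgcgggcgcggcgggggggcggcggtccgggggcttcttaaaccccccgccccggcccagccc
ACTN1, listed start 3, chr14:68977567-68977816, minus strand: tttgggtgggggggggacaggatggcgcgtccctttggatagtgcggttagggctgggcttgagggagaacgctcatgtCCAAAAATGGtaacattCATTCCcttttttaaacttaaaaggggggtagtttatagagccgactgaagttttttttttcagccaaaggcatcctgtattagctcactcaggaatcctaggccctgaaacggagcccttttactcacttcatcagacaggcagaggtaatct
LCP1, chr13:46182178-46182427, minus strand: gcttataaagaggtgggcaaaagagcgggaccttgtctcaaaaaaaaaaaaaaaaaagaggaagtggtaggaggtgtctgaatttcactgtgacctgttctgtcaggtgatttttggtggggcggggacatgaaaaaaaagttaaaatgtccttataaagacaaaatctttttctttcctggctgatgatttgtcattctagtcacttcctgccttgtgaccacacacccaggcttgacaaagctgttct
PLS3, listed start 1, chrX:115560924-115561173, plus strand: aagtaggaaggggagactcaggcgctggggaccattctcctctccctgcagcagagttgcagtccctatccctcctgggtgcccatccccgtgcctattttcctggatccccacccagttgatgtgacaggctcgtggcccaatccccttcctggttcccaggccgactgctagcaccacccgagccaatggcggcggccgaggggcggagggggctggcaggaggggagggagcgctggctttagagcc

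The FLNA promoter held 1 CArG box, CCAATTAAGG, 85 to 94 bases before the start. ACTN1 held 1, CCAAAAATGG, 162 to 171 bases before its listed start 3, followed by 1 CATTCC. That window is printed because it holds matches: ACTN1 has 4 listed starts, and starts 1, 2 and 4 held none of the 3 motifs. ACTN4 held 1 match, TGAATCA, to the loosened form of the AP-1 site, 242 to 248 bases before its listed start 1. Neither start 2 of ACTN4 nor start 2 of PLS3 held a match. FLNC held 1 CATTCC, 98 to 103 bases before the start, and the printed windows of LCP1 and PLS3 held none of the 3 motifs. Of 35116 promoter windows of the same length, 1.16% held a CArG box, 11.9% CATTCC and 6.57% TGANTCA. The windows also differed in base composition, with 78.4% GC for FLNA and 85.6% for FLNC against 41.2% for LCP1 and 65.2% for PLS3. A match describes these letters and is not a measured site.

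Other actin crosslinkers and bundlers were called in both directions. Of 44 listed genes 35 were tested, 8 rose and 9 fell, beside 18.9% and 18.3% of all tested genes, and the median log2 fold change was -0.03. With the GC and length correction 10 rose and 7 fell, beside 17.5% and 12.2% of all genes, and the median was 0.05. The largest decreases among those named were in MARCKSL1 and MARCKS, membrane-bound crosslinkers that protein kinase C releases from the membrane. MARCKSL1 stood at 34.8 ± 0.520 CPM in knockdown and 81.2 ± 5.25 CPM in control libraries (SD, n = 3 each, log2 fold change -1.22, SE 0.06, edgeR adjusted p = 9.7e-14), 2.33-fold lower. MARCKS was 2.12-fold lower, at 63.3 ± 0.663 against 134 ± 7.32 CPM (SD, n = 3 each, log2 fold change -1.08, SE 0.05, edgeR adjusted p = 1.1e-13). Both decreases were larger than that of any of the 6 tested crosslinkers described above, and stood at -1.07 and -1.12 with the GC and length correction.

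The villin relative AVIL fell 1.64-fold from a low level, at 2.14 ± 0.248 CPM in knockdown and 3.51 ± 0.425 CPM in control libraries (SD, n = 3 each, edgeR adjusted p = 0.00061). ANLN, anillin, which bundles filaments in the cleavage furrow, rose 1.25-fold, to 259 ± 11.3 CPM in knockdown, against 207 ± 9.31 CPM in control libraries (SD, n = 3 each, edgeR adjusted p = 2.3e-05). FAM107B rose 1.26-fold (edgeR adjusted p = 1.4e-05) and ADD3, an adducin that joins actin to spectrin, rose 1.21-fold (adjusted p = 0.00019), with a log2 fold change of 0.28 that was 0.17 after correction. CTTN, cortactin, had 2 counts in all over the 6 libraries and, like ACTN4, also lies on an extra sequence of the annotation. Its value is therefore not read as absence of its transcript.

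Of 32 ligands and regulators of filamins and alpha-actinins, 24 were tested. Of these 3 rose and 7 fell, beside 18.9% and 18.3% of all tested genes, or 10 in all beside 37.2%. The median log2 fold change was -0.10. With the GC and length correction 3 rose and 6 fell, beside 17.5% and 12.2% of all genes. The median was then -0.02, against 0.03 over all genes. Among those that fell were FBLIM1 (migfilin), a filamin ligand at cell adhesions, 1.26-fold (edgeR adjusted p = 3.7e-05), the PDZ and LIM protein PDLIM4, 1.44-fold (adjusted p = 4.4e-05), and LPP, an alpha-actinin ligand of the zyxin family, 1.22-fold (adjusted p = 5.9e-05). PDLIM1, a relative of PDLIM4 that also binds alpha-actinin, went the other way, at 55.4 ± 2.41 CPM in knockdown and 45.3 ± 1.09 CPM in control libraries (SD, n = 3 each, log2 fold change 0.29, adjusted p = 0.00018 by edgeR). The phosphatase PTPN12 and the GTPase RALA, a filamin partner, rose 1.2-fold and 1.19-fold (edgeR adjusted p = 0.00011 and 0.00029). The correction moved the log2 fold change of FBLIM1 to -0.19, against -0.33 without it, and that of PTPN12 to 0.17, against 0.27. Those of PDLIM4 and RALA also shrank, to -0.37 against -0.53 and to 0.18 against 0.25. Those of LPP and PDLIM1 grew in size, to -0.37 against -0.29 and to 0.36 against 0.29. All of these genes kept the call. ZYX, ASB2 and RFLNB lie on extra sequences of the annotation and had 2, 0 and 0 counts over the 6 libraries. For these genes, lack of transcript and fragments left uncounted cannot be told apart.

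Of 24 filopodia genes that work beside fascin, 22 were tested, 4 rose and 6 fell, beside 18.9% and 18.3% of all tested genes, with a median log2 fold change of 0.01. After GC and length trends were removed, 21 of them were tested, 7 were called higher and 3 lower. The balance over all genes also moved towards increases in that fit, to 17.5% higher and 12.2% lower. The corrected medians were 0.06 for the filopodia genes and 0.03 for all genes. The largest change among those named was in PRKCA, protein kinase C alpha, which phosphorylates fascin and reduces its actin binding. It had 295 ± 12 CPM in knockdown and 444 ± 15.5 CPM in control libraries (SD, n = 3 each, log2 fold change -0.59, SE 0.05, edgeR adjusted p = 3.3e-09), 1.51-fold lower. The integrin activator TLN1 fell 1.19-fold and the adhesion molecule NECTIN2 fell 1.16-fold (edgeR adjusted p = 0.00052 and 0.0018), and NECTIN2 lost the call with the GC and length correction (adjusted p = 0.19). FERMT2, kindlin-2, rose 1.28-fold, the small GTPase CDC42 1.18-fold and the formin FMNL2 1.19-fold (edgeR adjusted p = 4.6e-06, 0.00022 and 0.00054). The corrected log2 fold change of TLN1 was -0.13 (adjusted p = 0.037), against -0.25 without correction, and that of FERMT2 was 0.22, against 0.35.

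**Figure D5:**
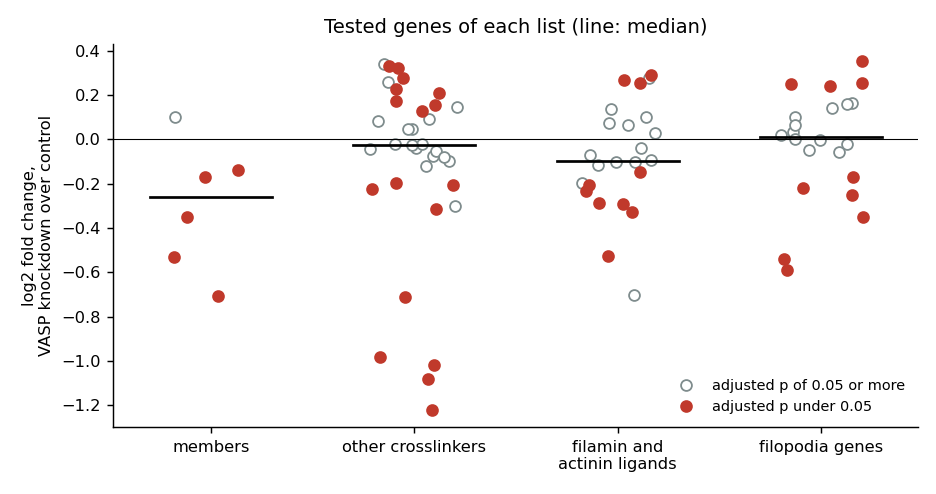
Log2 fold change, VASP knockdown over control, of the tested genes among the members (6), the other crosslinkers (35), the ligands of filamins and alpha-actinins (24) and the filopodia genes (22); filled red circles passed an adjusted p of 0.05 by edgeR, open circles did not, and black lines show medians. The medians are -0.26, -0.03, -0.10 and 0.01, and the 2 lowest points among the other crosslinkers are MARCKSL1 and MARCKS.

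The gene whose log2 CPM most resembled that of each member over the 6 libraries was sought among 8241 other tested genes with a mean log2 CPM of 4 or more. Pearson's r is given as a description without a p, since it takes in the difference between the groups, and the genes share their libraries. UNKL was most like FLNA, with r = 0.9995, followed by PNPLA6 (0.9986). DAPK3 was most like FLNC (0.9991, then VCP at 0.9981), BIRC5 most like ACTN1 (0.9972, then ERAP1 at 0.9907) and SGPP2 most like LCP1 (0.9999, then TBC1D16 at 0.9990). TDRKH was most like PLS3 (0.9951, then DMXL2 at 0.9905) and CRACR2B most like FSCN1 (0.9952, then DDIT4 at 0.9909). With 8241 genes and 6 libraries, values this close to 1 are found for every member.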

How the data were processed

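The 6 total RNA libraries analysed came from 1 cell line, 3 with VASP knockdown and 3 controls. The deposited table holds read counts per gene symbol. Per the file headers, the authors counted read pairs over GENCODE 32 exons with featureCounts 1.6.4, with no strand option. The submitters' processing notes name STAR 2.7.1a and Trim Galore 0.6.4. The column names of the 3 control libraries each extend the title of control sample 1 by a further number. They show the group but not the sample, so 3 control samples cannot be told from repeats of 1. No label states separate cultures. The p-values thus measure only how these libraries vary, which may be technical variation.

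Counts were tested with edgeR 4.0.16 (R 4.3.3): filterByExpr, TMM, robust quasi-likelihood fit, two-sided, Benjamini-Hochberg over 16633 genes. RPKM use the length in the deposited table. GC content came from the longest GENCODE 29 transcript of each symbol, matched for 97.4% of tested genes, with splines of 5 degrees of freedom. Alternatives used RLE factors, other filters, DESeq2 1.42.0, limma 3.58.1, a null of 1.2-fold, the GC and length correction, and left-out libraries. Scripts were tested on simulated counts, with changes put into genes of any level that passed the filter. The test recovered 32.7% of the genes changed by 0.25 log2 and 79.8% of those changed by 0.5 log2. It also called 6 unchanged genes. Named list genes are the up to 6 with the smallest p per list among those past an adjusted p of 0.05, with the exceptions stated. The members, lists and tests were chosen with earlier results of these data known.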

Additional observations from a re-analysis of the deposited data

How the results depend on the processing

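RLE size factors, a filter of 1 CPM in 3 libraries and limma voom kept direction and call for VASP, the 6 tested members and the 18 named list genes. With the GC and length correction 3 members were called, PLS3 stood at -0.011 and FSCN1 at 0.072 (log2), and the split over all genes was 2836 higher and 1974 lower. That split was 3417 and 2685 without a filter and 2848 and 2221 by DESeq2. Against a null of 1.2-fold, 953 of all genes, 2 members, 4 other crosslinkers, 1 ligand and 1 filopodia gene were called. Leaving out single libraries gave 3 to 4 members called, 3 without knockdown library 2, knockdown library 3 or control library 2. It also gave 4481 to 6399 of all genes, 13 to 16 other crosslinkers, 9 to 11 ligands and 8 to 12 filopodia genes. VASP ran from -3.73 to -3.65, the log2 ratio of FLNA to FLNC from -0.20 to -0.17 and that of PLS3 to LCP1 from 0.79 to 0.82. The cause of these shifts was not tested. No paired analysis was possible because the control columns carry no replicate number from the labels. ACTN4, with 1 count in all, allowed no ratio to ACTN1. Counting intervals cover counting error only.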
